A study of Mus musculus with 9 samples.

Results

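CXC chemokine genes were examined in 9 clones of primary cells grown from the pancreatic tumors of WTg mice (MPC). The members were taken by name as Cxcl1, Cxcl2, Cxcl3, Cxcl5, Cxcl9, Cxcl10, Cxcl12, Cxcl14 and Cxcl16, which are 9 genes. Of these, 8 had a row among the 18049 genes of the table, and Cxcl9 was not analysed here. The genotype is EL1-Luc/EL1-Tag x CAG-Mettl3, so the elastase I promoter, which is active in acinar cells, drives SV40 large T antigen and luciferase, and the broadly active CAG promoter drives Mettl3. All 9 clones carry all of these transgenes, and each library is 1 clone isolated from a colony and grown in DMEM with 10% serum. The samples' treatment is labelled none, although their protocol text mentions the PLK1 inhibitor NMS-P937 (80 nM, 24 h), and the clones were taken as untreated. The labels do not say how many mice gave the clones, so some clones may share a mouse. The standard errors, intervals and p-values below therefore cover spread between clones, not between mice. Part of that spread may be technical.

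CXC chemokines are small secreted proteins that guide leukocytes through G protein-coupled receptors. Cxcl1, Cxcl2, Cxcl3 and Cxcl5 carry the ELR motif and draw neutrophils through Cxcr2, and their genes are classical targets of NF-kB downstream of TNF, IL-1 and Toll-like receptors. Cxcl9 and Cxcl10 are induced by interferons and draw T and NK cells through Cxcr3. Cxcl12 is made by stromal cells and signals through Cxcr4, with Ackr3 as a scavenging receptor. Cxcl14 is made constitutively in many epithelia and by some tumor fibroblasts, and Cxcl16 is made as a transmembrane protein by macrophages and other cells, is shed by Adam10 and binds Cxcr6.

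The promoter sequences are shown because Cxcl1 and Cxcl2 share a motif while their patterns across the clones differ. Cxcl3 carries the same motif but had too few reads to show a pattern. RefSeq's promoter table for GRCm38.p6 had a window of 300 bases, from 250 before to 50 after the gene start, for 7 of the 9 members, and Cxcl5 and Cxcl16 were not searched. The windows were searched on both strands for the NF-kB consensus (kB) and for the interferon-stimulated response element, searched as TTTC, any 2 bases and TTTC. The kB consensus was found in 4 members, which are Cxcl1, Cxcl2, Cxcl3 and Cxcl10, against 4.51% of all 32851 windows. The interferon-stimulated response element was found in 2 members, Cxcl10 and Cxcl14, against 3.44% of all windows. In the lines that follow, the capitals mark the match, and each sequence runs 5′ to 3′ on the strand of the gene. In Cxcl1, Cxcl2 and Cxcl3 the same kB letters also match on the opposite strand, shifted by 1 base.
Cxcl1 kB, chr5:90891164-90891193, plus strand: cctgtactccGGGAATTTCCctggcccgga
Cxcl2 kB, chr5:90903792-90903821, plus strand: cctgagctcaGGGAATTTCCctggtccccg
Cxcl3 kB, chr5:90786018-90786047, plus strand: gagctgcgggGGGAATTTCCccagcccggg
Cxcl10 upstream kB, chr5:92349029-92349058, minus strand: agaggggagaGGGAAATTCCaagttcatgg
Cxcl10 downstream kB, chr5:92348973-92349002, minus strand: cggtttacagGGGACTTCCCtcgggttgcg
Cxcl10 interferon element, chr5:92349083-92349112, minus strand: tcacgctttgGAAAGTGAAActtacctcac
The matches begin 71, 97 and 73 bases before the gene start in Cxcl1, Cxcl2 and Cxcl3. In Cxcl10 the kB matches begin 159 and 103 bases before the start, and the interferon element 213 bases before it. The Cxcl14 match, on chromosome 13, begins 172 bases before the start. A match describes these letters only, and binding was not measured. The kB-bearing genes lie on chromosome 5, where Cxcl5, Ppbp, Pf4, Cxcl3, Cxcl15, Cxcl1 and Cxcl2 follow each other between 90.76 and 90.91 Mb, with Cxcl9 and Cxcl10 at 92.32 to 92.35 Mb. Cxcl12 is on chromosome 6, Cxcl14 on chromosome 13 and Cxcl16 on chromosome 11.

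Levels are given as normalized counts, which are the authors' scaled read counts, and 1 read was worth 1.26 to 2.19 of them. The depth on genes ran from 12198042 to 20453901 reads. The column names begin in 3 ways whose meaning is not stated, called here prefix A (1 library), prefix B (4 libraries) and prefix C (4 libraries). Prefix B goes with high Xist (29664 to 32912 normalized counts) and no Ddx3y read, and prefix C with Ddx3y at 2376 to 2720. The prefix A library had no Xist read and Ddx3y at 2444, like prefix C, where Xist was at most 8.39. Between prefixes B and C, name prefix, sex of the mouse and any difference in handling therefore cannot be told apart. A gene that sets prefix B apart from all other libraries, as Cxcl1 and Cxcl14 do, follows the same split. The prefix A library stands apart, with Mettl3 at 2184 against 468 to 621 in the others, the lowest depth, and the highest level for 19.96% of 14705 genes whose mean reached 10 normalized counts, against 5.22% to 17.9% for the other libraries. The labels call the cells fibroblasts. Of 10 fibroblast markers, 9 were above 3 reads in every clone, and Lum was above 3 reads in 6 clones. All 10 macrophage markers were above 3 reads in every clone. The 6 acinar markers summed to 2415 normalized counts in prefix C library 3, and to 144 to 396 in the others, where most of the sum is Cela1. The T and NK cell markers and 6 of the 8 neutrophil markers were not analysed here, and of the other neutrophil markers Csf3r was at 74.4 to 1009 normalized counts and S100a8 at 2.19 to 24.6. In such bulk libraries, fewer cells of a type and less RNA per cell cannot be told apart. Levels are compared between clones, not between genes, because no exonic lengths were at hand.

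Among the neutrophil attractants, Cxcl2 was clearly detected in every clone, Cxcl1 was low in prefix B and higher in prefix C, and Cxcl3 and Cxcl5 did not exceed 3 reads in any clone. Cxcl1 (ENSMUSG00000029380), also known as KC, was at 27.5 ± 23.8 normalized counts (SD, n = 9), with a lowest value of 4.27, a median of 22.4 and a highest value of 74.9. It was at 11.5, 4.27, 13.0 and 5.05 in the 4 prefix B libraries, at 37.5, 74.9, 22.4 and 26.6 in the 4 prefix C libraries, and at 52.5 in the prefix A library. All prefix C libraries and the prefix A library lay above all prefix B libraries. The lowest value rests on 3 reads, with an exact 95% Poisson interval of 0.881 to 12.5 normalized counts, and the highest on 48 reads, with an interval of 55.2 to 99.3. These intervals cover counting error only.

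Cxcl2 (ENSMUSG00000058427), also known as MIP-2, was at 155 ± 106 normalized counts (SD, n = 9), with a lowest value of 93.7, a median of 116 and a highest value of 429. It was at 105 to 135 in prefix B and at 93.7 to 180 in prefix C, and these ranges overlap. The highest value was in the prefix A library, 2.39 times the next highest, and its Poisson interval of 371 to 493 lies above all other libraries. Without that library the mean was 121 ± 27.3 (SD, n = 8). Cxcl3 (ENSMUSG00000029379) had 13 reads over all 9 libraries, between 0 and 3 in each, and no read in 2 of them. Cxcl5 (ENSMUSG00000029371), also known as LIX, had 11 reads in all, between 0 and 3 in each, and no read in 3 libraries. Both were therefore at or under the floor of 3 reads, which is 3.79 to 6.56 normalized counts, and differences between clones were not detectable at this depth. Cxcl1, Cxcl2 and Cxcl3 are paralogs, and the division of reads that fit more than 1 of them was not checked. RSEM, named in the processing notes, shares such reads out by expectation maximization, whereas the reads recovered here are whole numbers.

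Cxcl10 (ENSMUSG00000034855), also known as IP-10 and a ligand of Cxcr3, was low in every clone and highest in the prefix A library. It was at 40.6 ± 22.4 normalized counts (SD, n = 9), with a lowest value of 18.5, a median of 33.6 and a highest value of 91.9. Prefix B spanned 18.5 to 50.6 and prefix C spanned 20.7 to 51.7, so the prefixes overlap almost wholly. The prefix A value was 1.78 times the next highest and rests on 42 reads, with a Poisson interval of 66.2 to 124.

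Cxcl12 (ENSMUSG00000061353), also known as SDF-1, was well detected in every clone but varied 17.4-fold between the lowest and the highest. It was at 3353 ± 2506 normalized counts (SD, n = 9), with a lowest value of 465, a median of 3484 and a highest value of 8106. It was at 1564, 3801, 3487 and 8106 in prefix B, at 1848, 3484, 1125 and 465 in prefix C, and at 6294 in prefix A. The prefixes overlap, with the highest library in prefix B and the lowest in prefix C.

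Cxcl14 (ENSMUSG00000021508), also known as BRAK, varied widely between clones. It was at 1225 ± 1037 normalized counts (SD, n = 9), with a lowest value of 160, a median of 1008 and a highest value of 3193. It was at 1068, 3193, 2385 and 1822 in prefix B, at 1008, 578, 575 and 160 in prefix C, and at 239 in prefix A. All prefix B libraries lay above all others, by a small margin between the lowest of prefix B and the highest of prefix C. The same prefix C library was the lowest for Cxcl12 and for Cxcl14. In that library the 10 fibroblast markers summed to 275786 normalized counts, within the prefix C range, and the 10 macrophage markers to 830732, the highest of the 9 clones. That sum is mostly Lyz2, at 577310. Without it the other 9 macrophage markers summed to 253421, the highest of prefix C but below 3 of the 4 prefix B libraries. Single markers went both ways there, with Csf1r at 24658, the lowest but 1 of the clones, and Mrc1 at 32723, the highest but 1. Their part in the low Cxcl12 and Cxcl14 was not tested.

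Cxcl16 (ENSMUSG00000018920) was the steadiest member. It was at 4581 ± 917 normalized counts (SD, n = 9), with a lowest value of 3011, a median of 4763 and a highest value of 6009, so the highest clone was 1.995 times the lowest. Prefix B spanned 4377 to 5606 and prefix C spanned 3011 to 6009, and the prefix A library was at 4084. The highest value was in prefix C library 3, which has the high acinar markers, and their part in it was not tested.

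The spread of the members between clones was set beside that of the 14705 genes whose mean reached 10 normalized counts, of which 6 members are part. The SD of log2(normalized counts + 1) over the 9 clones was 1.46 for Cxcl14, 1.34 for Cxcl1 and 1.29 for Cxcl12, each larger than that of over 94% of these genes (percentiles 95.8, 94.9 and 94.5). It was 0.69 for Cxcl10 and 0.67 for Cxcl2, at percentiles 84.6 and 84.0, and 0.30 for Cxcl16, at percentile 57.6. Within prefixes, the SD of Cxcl2 was 0.17 in prefix B and 0.41 in prefix C, while that of Cxcl12 remained at 0.97 and 1.22. Cxcl1 rests on 3 to 48 reads per library, so its spread includes more counting error.

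**Figure D1:**
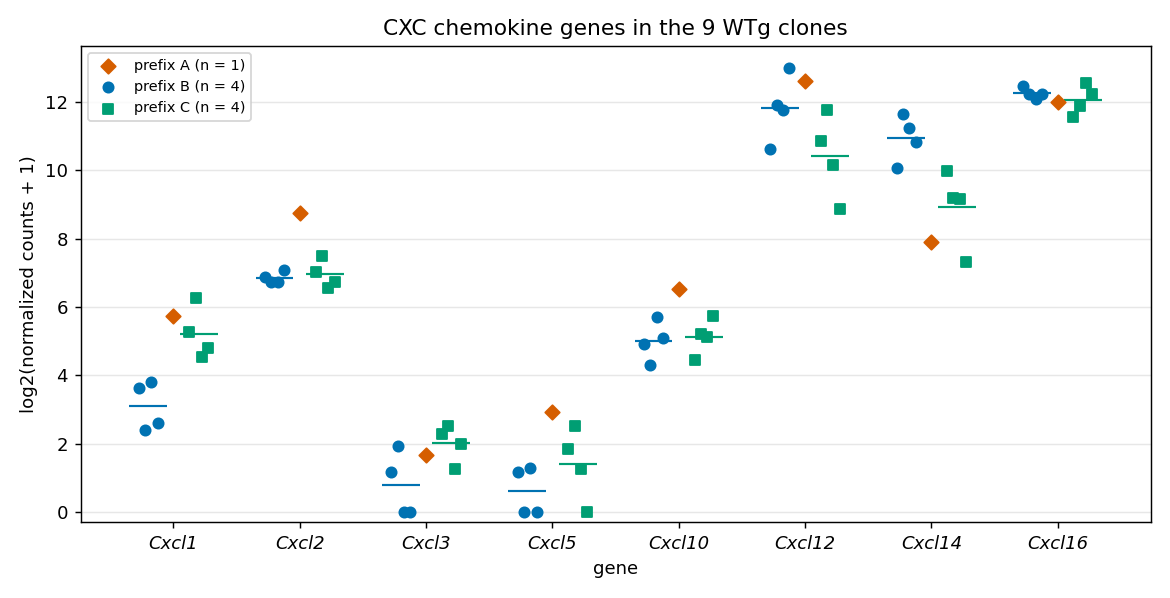
The plot shows log2(normalized counts + 1) of the 8 listed CXC chemokine genes in each of the 9 clones. Each point is 1 library and short lines are the means of the 4 libraries of prefix B and of prefix C. Cxcl1 is higher in all prefix C than in all prefix B libraries, Cxcl14 is lower, Cxcl2 and Cxcl10 are highest in the prefix A library, and Cxcl3 and Cxcl5 stay at or under 3 reads.

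Whether the members differ between the sets of libraries was tested with limma over genes averaging 1 normalized count or more, which all 8 listed members did. In limma, 0 of the 8 members passed an adjusted p under 0.05 between prefix C and prefix B, where 0.171% of 16962 genes did (0.1% higher and 0.0707% lower in prefix C). At an unadjusted p under 0.05, 2 members passed, against 18.6% of all genes. With voom, which models the recovered reads, 0 members passed after adjustment and 2 before it. The median difference of the 8 members was 0.11 on the log2 scale, against -0.017 over all genes. That median includes Cxcl3 and Cxcl5, which did not exceed 3 reads in any clone, and was not computed without them.

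Cxcl1 was at 40.4 ± 23.9 normalized counts in prefix C and 8.45 ± 4.43 in prefix B (SD, n = 4 each). The difference of log2(normalized counts + 1) was 2.10 ± 0.49 (SE), with a 95% interval of 0.99 to 3.21, and did not pass after adjustment (limma, adjusted p = 0.142, Benjamini-Hochberg over 16962 genes). The prefixes did not overlap, as for 4.24% of all genes tested that were higher in prefix C. Cxcl14 was at 580 ± 346 in prefix C and 2117 ± 898 in prefix B (SD, n = 4 each), a difference of -2.03 ± 0.55 with an interval of -3.27 to -0.78, which also did not pass (limma, adjusted p = 0.161). The prefixes did not overlap, as for 5.25% of all genes tested that were higher in prefix B. The difference of Cxcl12 was -1.41 ± 0.65, with an interval of -2.90 to 0.079 (limma, adjusted p = 0.287).

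The differences of Cxcl2, Cxcl10 and Cxcl16 lay closer to 0. Those of Cxcl3 (1.23) and Cxcl5 (0.78) rest on at most 3 reads in each library (limma, adjusted p = 0.297 and 0.530). Cxcl2 differed by 0.097 (interval -0.39 to 0.59), Cxcl10 by 0.13 (interval -0.72 to 0.97) and Cxcl16 by -0.21 (interval -0.65 to 0.24) on the log2 scale, with adjusted p between 0.577 and 0.873 in limma. These intervals leave room for a change of Cxcl2 by up to 0.59 and of Cxcl10 by up to 0.97 on the log2 scale. The summed fibroblast markers were at 111988 to 232261 normalized counts in prefix B and 190869 to 427501 in prefix C, and the summed macrophage markers at 661175 to 755833 and 523174 to 830732. Both ranges overlap between prefixes, as did those of most single markers, but some single markers did not. Pdgfra (332 to 1085 in prefix B and 1214 to 2859 in prefix C) and Vim (26662 to 47828 and 49580 to 67693) were higher in all prefix C libraries, as Cxcl1 was. Adgre1 (21086 to 27704 and 12904 to 20276) and C1qb (50493 to 65405 and 36264 to 50412) were higher in all prefix B libraries, as Cxcl14 was. Among all genes tested, 4.24% were higher in all prefix C and 5.25% in all prefix B libraries. The other fibroblast and macrophage markers overlapped, and of these Dcn, Lum and Fap had the higher mean in prefix B, opposite to Pdgfra. From the other marker lists, Csf3r was higher in all prefix B libraries, and Cdh1 and Tek in all prefix C libraries. Tek was at or under 3 reads in 6 clones, with 1 read in both prefix B library 4 and prefix C library 1, so its split rests on the scaling of 1 read. The part of these cell types in the differences was not tested.

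**Figure D2:**
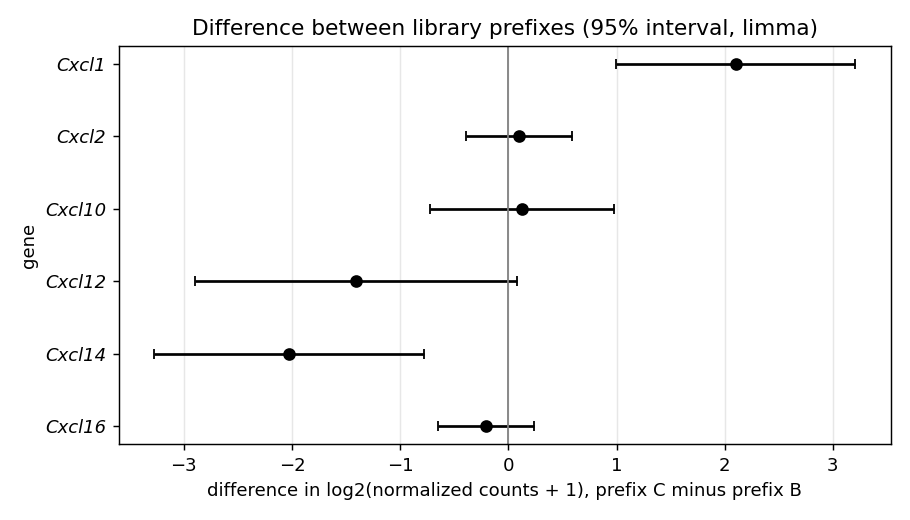
The plot shows the difference in log2(normalized counts + 1) between prefix C and prefix B (4 libraries each) for the 6 members whose mean reached 10 normalized counts. Points are limma estimates and bars are 95% intervals, without adjustment for many genes. The intervals of Cxcl1 and Cxcl14 lie on opposite sides of 0, that of Cxcl12 reaches 0.079, and those of Cxcl2, Cxcl10 and Cxcl16 include 0.

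Mettl3, the m6A methyltransferase gene that the clones carry as a transgene, was set beside the members by fitting them on log2 Mettl3 over the 9 clones. Cxcl2 rose with Mettl3 by 0.83 ± 0.17 (SE) log2 units per log2 unit of Mettl3 and passed (limma, adjusted p = 0.0399), as did 2.46% of the 16961 genes tested with 0.324% rising and 2.13% falling. It was the 1 member of 8 to pass, and 2 members had an unadjusted p under 0.05, against 14.6% of genes. The slope rests on the prefix A library, the highest for both genes. Without that library the slope was -0.65 (limma, adjusted p = 0.733, n = 8), and with prefix as a factor it was -1.12 within prefixes B and C (limma, adjusted p = 1). Cxcl10, with the next smallest p among the members, had a slope of 0.69 ± 0.26 that did not pass (limma, adjusted p = 0.255) and was -0.12 without the prefix A library and 0.71 with prefix as a factor (limma, adjusted p = 0.977 and 1). The median slope of the members was 0.59, against -0.0021 over all genes. That median is from the fit with the prefix A library, includes Cxcl3 and Cxcl5 at the floor of reads, and was not computed without that library.

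TNF induces several CXC chemokines, and Tnf reached 1232 normalized counts in the library of prefix A against 434 to 755 in the others. On log2 Tnf, 0 of 8 members and 0% of 16961 genes passed in limma, where 2 members and 8.78% of genes had an unadjusted p under 0.05. The slope was 0.95 ± 0.39 for Cxcl2 (limma, adjusted p = 0.531) and 1.19 ± 0.37 for Cxcl10 (limma, adjusted p = 0.379). Without the prefix A library the slope of Cxcl2 turned to -0.39 and that of Cxcl10 was 0.88 (limma, adjusted p = 0.798 and 0.738). On log2 Cxcl1, likewise, 0 of the other 7 members and 0% of genes passed in limma, where 2 members and 20.2% of genes had an unadjusted p under 0.05. The 2 members were Cxcl14 and Cxcl5, and Cxcl5 did not exceed 3 reads in any clone. Cxcl2 had a slope of 0.27 ± 0.14 (limma, adjusted p = 0.318), which was 0.10 without the prefix A library, and Cxcl14 of -0.79 ± 0.24 (limma, adjusted p = 0.169). With prefix as a factor the slope of Cxcl14 on Cxcl1 was 0.039, so within prefixes the inverse relation was not seen.

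**Figure D3:**
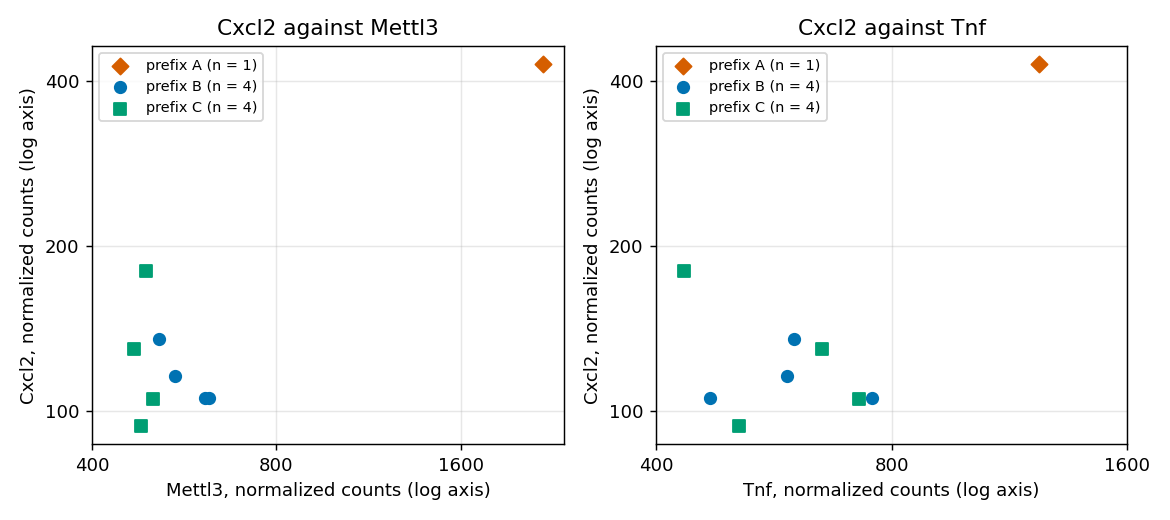
The plots show Cxcl2 against Mettl3 (left) and against Tnf (right), both in normalized counts on log axes, with 1 point for each of the 9 libraries. The prefix A library, at 429 for Cxcl2, 2184 for Mettl3 and 1232 for Tnf, lies apart from the other 8 libraries, whose Cxcl2 spans 93.7 to 180.

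Of the receptors, those for Cxcl12 were clearly detected in every clone. Cxcr4 (ENSMUSG00000045382), its signaling receptor, was at 1631 ± 604 normalized counts (SD, n = 9), from 779 to 2583. Ackr3 (ENSMUSG00000044337), its scavenging receptor, was at 617 ± 404, from 115 to 1197, with 171 in the prefix A library. Cxcr3 (ENSMUSG00000050232), the receptor of Cxcl9 and Cxcl10, was at 64.6 ± 22.6, from 32.8 to 101. Cxcr3 was lowest in the prefix A library, which had the highest Cxcl10. Its value there rests on 15 reads, with a Poisson interval of 18.4 to 54.1, which also covers prefix C library 2 at 46.8. Cxcr6 (ENSMUSG00000048521), the receptor of Cxcl16, was at 9.33 ± 5.62 and above 3 reads in 7 of the 9 clones. Ackr4 was at 21.4 ± 24.2 and above 3 reads in 8 clones, with 73.8 at most, and Ackr1 was above 3 reads in 2 clones. Cxcr1, Cxcr2, Cxcr5 and Ackr2 were not analysed here, so the receptors of the neutrophil attractants have no value.

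Other CXC ligand genes beside Cxcl5 on chromosome 5 were also read. Pf4 (ENSMUSG00000029373), the platelet factor also called Cxcl4, was at 3245 ± 1663 normalized counts (SD, n = 9), from 1015 to 5730. Ppbp (ENSMUSG00000029372), also called Cxcl7, was at 19.0 ± 9.47, from 4.43 to 35.0, and Cxcl15 had no read in any clone. Pf4, which lies between Ppbp and Cxcl3, thus had over 1000 normalized counts in each clone, and Cxcl3 and Cxcl5 did not exceed 3 reads. Gene lengths were not taken into account. Cxcl11, Cxcl13 and Cxcl17 were not analysed here. Adam10 and Adam17, proteases that shed Cxcl16 and other membrane proteins, were at 4875 ± 764 and 4031 ± 352.

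**Figure D4:**
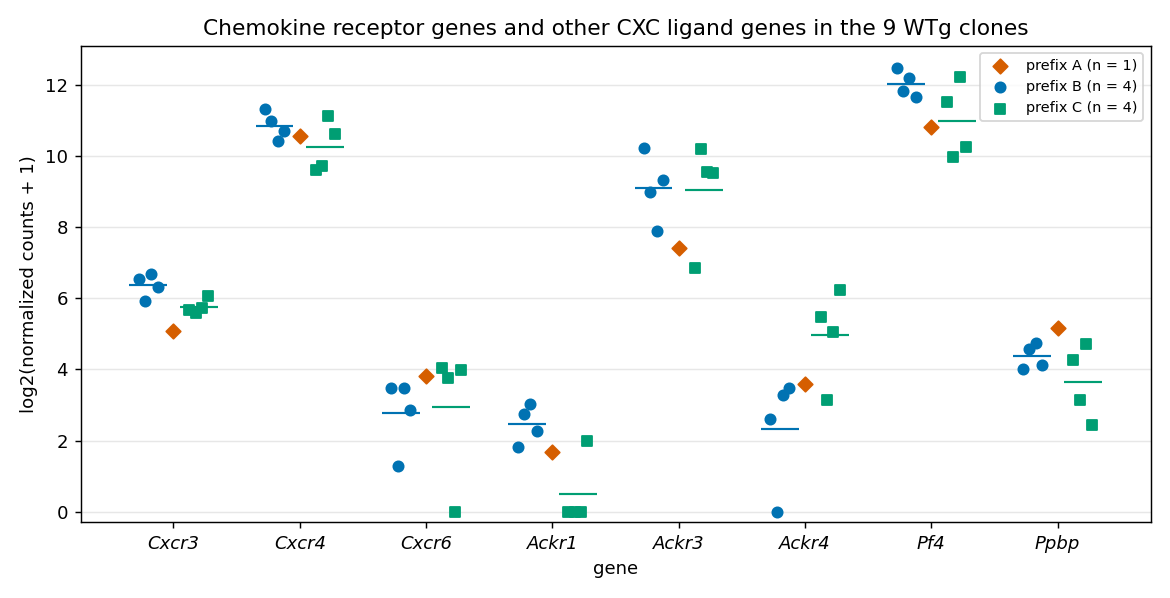
The plot shows log2(normalized counts + 1) of 6 chemokine receptor genes and of the ligand genes Pf4 and Ppbp in the 9 clones, with 1 point for each library and short lines for the means of prefixes B and C. Cxcr4, Ackr3 and Pf4 are well above 3 reads in all clones, and Cxcr6 and Ackr1 are near or at 0 reads in some.

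A list of 42 genes of the pathway covered receptors, other ligands, ligand processing, inducers and the NF-kB and interferon arms, and 33 of them were listed in the table. Between prefix C and prefix B, 0 of the 32 tested passed an adjusted p under 0.05 in either direction with limma and 0 with voom, where 0.171% of all genes passed in limma. At an unadjusted p under 0.05, 12 of the 32 passed, where 18.6% of all genes did. On Mettl3, 0 of 32 passed after adjustment (2.46% of all genes) and 3 before it (14.6%). On Tnf, 0 of 31 passed after adjustment (0%) and 3 before it (8.78%). On Cxcl1, 0 of 32 passed after adjustment (0%) and 11 before it (20.2%). The median difference between prefixes was -0.24 for the list and -0.017 over all genes.

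The genes whose levels followed those of a member most closely over the 9 clones were found by Pearson's r of log2(normalized counts + 1) among 14671 genes with a symbol. They are given as a description without a test, because they are the extremes of a long list and the libraries share prefixes. For Cxcl1 they were Rdh13, Zfp811 and Lama1 (r = 0.942, 0.941 and 0.932), which fell to 0.746, 0.804 and 0.681 after centring within prefixes B and C. For Cxcl10 they were Abcd4, Fam133b and Six4 (r = 0.926, 0.892 and 0.891), with 0.869, 0.765 and 0.774 within prefixes. For Cxcl12 they were Ccdc149, Lrguk and Rhbdd1 (r = 0.901, 0.896 and 0.895), with 0.836, 0.819 and 0.808 within prefixes. No member of the family was among these 9 genes.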

How the data were processed

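RNA of 9 WTg clones was sequenced from stranded mRNA libraries. The submitters' processing notes name FastQC 0.11.9, STAR 2.7.10, RSEM 1.3.3 and the build GRCm38. The authors deposited log2 values of read counts that had been scaled with a single factor for each library, after adding 4. The scaling software is not given in the sources used here. The table also holds 6 columns of mouse embryonic fibroblasts from other series, which were not used.

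The log2 was undone and 4 was subtracted. Dividing by the value of 1 read gave whole reads for 100% of nonzero values under 1000 reads, within 0.05 reads plus the rounding of the deposited decimals. Members were matched by symbol. The members and lists were chosen with earlier results of these data known. Column names carry no clone number, so libraries were grouped as WTg replicates and by name prefix.

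limma (lmFit, eBayes with a trend) was run on log2(normalized counts + 1) over genes averaging 1 normalized count or more, with Benjamini-Hochberg adjustment over all of them. Because deposited values are on a log2 scale, the test fixed for normalized values was used, with voom on recovered reads as an alternative. The rule for named genes took the members, receptors, listed pathway genes past the threshold (there were none) and the 3 most alike genes for each of 3 members. Other genes named, such as Pf4, Ppbp, Adam10, Adam17, the markers and those of libraries that stand apart, were chosen after their values were seen. Alternatives were other scaling, pseudocounts of 0.1 and 4, no filter or a filter at 50, no trend, leaving out libraries, and prefix as a factor. The fits were tested on simulated data with changes of 1 and 2 on the log2 scale. Unchanged genes made up 17.1% and 19.7% of the calls of the Mettl3 fit. That is more than its threshold allows, which bears on the call of Cxcl2. These shares were 6.31% and 8.44% between prefixes, 10.3% and 4.61% on Tnf, and 7.56% and 4.15% on Cxcl1. The look for libraries that stand apart left out 1 listed gene, which is not reported here. Promoter windows and positions are from RefSeq GRCm38.p6. Software was Python 3.11.15, numpy 2.4.6, pandas 2.3.3, scipy 1.17.1, matplotlib 3.10.9, R 4.3.3 and limma 3.58.1.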

Additional observations from a re-analysis of the deposited data

Results flagged for a closer look

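A gene was looked at again where the gap between the highest or lowest library and its neighbor was a larger share of the range than Dixon's critical value at 95%, over the 9 clones or within the 4 libraries of a prefix. Of 112 such groups, 10 exceeded it. Chance would give about 5.6, or 1 in 20, for normally distributed values. Normalized counts were used here without logs, and genes of a pathway are not independent, so that figure is only a rough guide. All 10 were a highest library. In the prefix A library, the gap made up a share of the range of 0.911 for Mettl3, 0.744 for Cxcl2, 0.597 for Tnf, 0.58 for Zfp36, an RNA-binding protein that promotes decay of chemokine and cytokine mRNA, and 0.548 for Cxcl10. Zfp36 was at 5153 normalized counts there and at most at 2795 in the others. As this prefix has a single library, clone and prefix cannot be told apart.

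In 1 prefix C library, the same that was lowest for Cxcl12 and Cxcl14, this share was 0.544 for Il1r1 over the 9 clones, and 0.929 for Irf9 within the prefix. Il1b stood apart in another prefix C library, at 54.6 normalized counts against 18.7 in the next (0.888). Within prefix B, Tnfaip3 was at 746 in the library with the most Cxcl12 and 520 in the next (0.939). Rela was at 2597 in another prefix B library and 2338 in the next (0.865), a small difference that is large only against the narrow range of the other 3.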

How the results depend on the processing

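No paired analysis was possible because the study has 1 group here, and no replicate number in the column names can be matched to a title. Mean levels of the 8 members stayed within 1 SD of the clones under upper quartile scaling, scaling to the total and without the prefix A library. The scaling factors did not exceed 0.068 on the log2 scale. Counts per kilobase could not be computed, as no exonic lengths were at hand.

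Between prefixes, 29 genes passed in limma, 15 without a filter on low genes, 17 without a trend, and between 9 and 242 when 1 library was left out, the last without prefix C library 3, which has the high acinar markers. None of the 6 members whose mean reached 10 normalized counts passed in any of these, and Cxcl1, Cxcl12, Cxcl14 and Cxcl16 kept their direction. The difference of Cxcl16 was -0.044 without prefix C library 1 and -0.38 without prefix C library 3, and that of Cxcl12 was -0.90 without prefix C library 4. Differences near 0 turned sign without 1 library, for Cxcl10 to -0.11 without prefix B library 2 and -0.075 without prefix C library 4 (range -0.11 to 0.36), and for Cxcl2 to -0.084 without prefix C library 2 (range -0.084 to 0.23). On Mettl3, 417 genes passed, 656 with a pseudocount of 0.1, 238 with a filter at a mean of 50, and 0 without the prefix A library, with prefix as a factor or without the 2 libraries farthest from the median of Mettl3. In those the slope of Cxcl2 was -0.65, -1.12 and -0.60, and its adjusted p was 0.0528 in limma without a filter on low genes. Cxcl10 turned to -0.12 on Mettl3 without the prefix A library, and was 0.71 with prefix as a factor and 1.85 without the 2 farthest libraries. On Tnf, 0 genes passed under all alternatives, and Cxcl2 turned to -0.39 without the prefix A library and -0.37 with prefix as a factor. On Cxcl1, 2084 genes passed without the 2 libraries farthest from the median of Cxcl1 and 0 under the other alternatives, Cxcl2 had a slope of 0.10 without the prefix A library and 0.51 without the 2 farthest, and Cxcl14 turned to 0.039 with prefix as a factor. Cxcl3 and Cxcl5 had too few reads for these data to show a difference.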
